A study of Mus musculus with 6 samples.

Results

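Kappa chain V genes (*Igkv*) are the germline segments that encode most of the variable domain of the immunoglobulin κ light chain. They were taken as all genes whose symbol starts with *Igkv*, which gave 160 of the 54446 genes listed. The annotation places all 160 on chromosome 6 and types 100 of them as coding V genes and 60 as V pseudogenes.

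A B cell makes its κ chain gene by joining a single V gene to a J segment (*Igkj1* to *Igkj5*), and the joined exon is spliced to the constant exon *Igkc*. Plasma cells and their precursors transcribe the joined gene at a very high rate, and the chain enters the endoplasmic reticulum through a leader peptide encoded by the first exon of the V gene. V genes on the same strand as *Igkc* are joined by deletion of the DNA in between, and V genes on the opposite strand are joined by inversion. In a culture of many B cell clones, the fragments on a V gene add up over all clones that use it, so the level of a V gene combines the number of such cells and the amount of κ mRNA in each.

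The libraries came from splenic naive B cells, purified by negative immunomagnetic selection and kept in culture for 7 days in the presence of LPS (20 µg/ml) plus IL-4 (20 ng/ml). One group carried the label TENT5C KO (3 libraries) and the other was wild type (WT, 3 libraries). TENT5C is a cytoplasmic poly(A) polymerase, and the comparison asks how its loss alters mRNA levels in activated B cells. All mice had the mixed C57BL/6J X CBA background, were cohoused littermates from matings of heterozygotes, and per the study's methods were of both sexes and, for these libraries, 12 to 15 weeks old. Libraries of the same number are a KO and a WT littermate and are called a pair. V genes can differ in sequence and number between mouse strains, and the effect of the mixed background on the fragments assigned to each V gene was not tested.

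Levels are normalized counts, that is, fragments per gene divided by a size factor for each library. *Tent5c* itself had 1993, 993 and 1170 normalized counts in KO 1, KO 2 and KO 3, and 1255, 767 and 1585 in WT 1, WT 2 and WT 3. The 2 groups overlapped, and the log2 fold change was 0.20 ± 0.19 (SE) with an adjusted *p* of 0.970 in limma. The level of the *Tent5c* transcript therefore does not check the labels, and KO and WT below name the libraries as they were labelled.

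The cells carried the markers of their label. All 5 B cell markers reported (*Cd79a*, *Cd79b*, *Ms4a1*, *Pax5* and *Cd22*) were present, and their summed level was 22729, 22100 and 25374 in KO 1 to KO 3 and 24597, 24645 and 20597 in WT 1 to WT 3. In limma and DESeq2 0 of the 5 passed the adjusted threshold. At an unadjusted *p* under 0.05 in limma 1 was lower in KO, *Cd79a* (log2 fold change −0.21 ± 0.08 SE), against 3.03% of all genes tested. Of 10 T cell markers none averaged 10 normalized counts or more, and their summed level lay between 16.7 and 85.5 per library, with *Trbc2* the highest at a mean of 8.87. Of 5 NK cell markers 2 reached that mean, led by *Gzma* at 22.0, with sums of 17.8 to 65.4. Of 10 myeloid markers 3 reached it, led by *Cd68* at 47.1, with sums of 67.7 to 166 and *Ly6g*, *S100a8* and *S100a9* at 0 in all 6 libraries. Of 6 erythroid markers none reached it, the highest was *Klf1* at 1.95, and *Hbb-bs*, *Hba-a1*, *Hba-a2* and *Slc4a1* were at 0 in all 6 libraries.

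Between 5393558 and 6793520 fragments per library lay on genes. The *Igkv* genes took 14238, 7580 and 11069 of them in KO 1, KO 2 and KO 3, and 19364, 11888 and 22902 in WT 1, WT 2 and WT 3. As a share of all fragments this was 0.214%, 0.115% and 0.163% in the KO libraries and 0.290%, 0.195% and 0.425% in the WT libraries. The highest KO library lay above the lowest WT library, so the groups overlapped, while each KO library was below the WT library of its own pair. At least 1 fragment was found for 122 of the 160 genes, comprising all 100 coding genes and 22 of the 60 pseudogenes. The other 38, all pseudogenes, had 0 fragments in every library, which allows up to 3 fragments, or 2.72 to 3.61 normalized counts, in a library. These bounds cover counting error only.

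A mean of at least 10 normalized counts was reached by 84 *Igkv* genes, all of them coding, and these entered the test together with the other genes, 12322 in all. The 76 genes below that mean held 0.633% of the *Igkv* fragments. The gene nearest below the limit was *Igkv2-137* with a mean of 9.90, and the nearest above was *Igkv14-130* with 11.3. The highest pseudogene was *Igkv4-77* with a mean of 7.07.

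The V genes span chr6:67555497-70704177 (GRCm38), and *Igkc* follows at chr6:70726435-70726966 on the plus strand. On the plus strand lie 75 V genes and on the minus strand 85, arranged in 53 runs of genes of the same strand, the longest with 22 plus strand genes and 28 minus strand genes. Pseudogenes made up 37 of the 75 plus strand genes and 23 of the 85 minus strand genes. After the limit on the mean, the 84 genes tested comprised 32 plus strand and 52 minus strand genes. When the locus was divided by start position into 3 segments of equal length, the segment farthest from *Igkc* (distal) held 47 genes with 22 tested, the middle segment 60 with 28 tested, and the segment next to *Igkc* (proximal) 53 with 34 tested. The distal segment was mostly of plus strand genes (40 of 47) and the middle one mostly of minus strand genes (41 of 60).

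The proximal segment held most of the κ V expression. Its share of the summed *Igkv* level was 53.2%, 56.7% and 56.1% in KO 1 to KO 3 and 56.0%, 56.4% and 59.0% in WT 1 to WT 3. The distal segment held 26.6%, 24.9% and 25.3% in the KO libraries and 24.7%, 25.1% and 23.4% in the WT libraries, and the middle segment held the remainder, 18.8% on average. The order proximal, distal, middle was the same in all 6 libraries. Per kb of exon, the median tested gene had a mean level of 597 normalized counts in the proximal, 326 in the distal and 209 in the middle segment. Minus strand genes held 57.6% of the summed level on average, against 42.4% for plus strand genes, although the median tested gene was higher on the plus strand, at 410 against 274 normalized counts per kb.

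**Figure D1:**
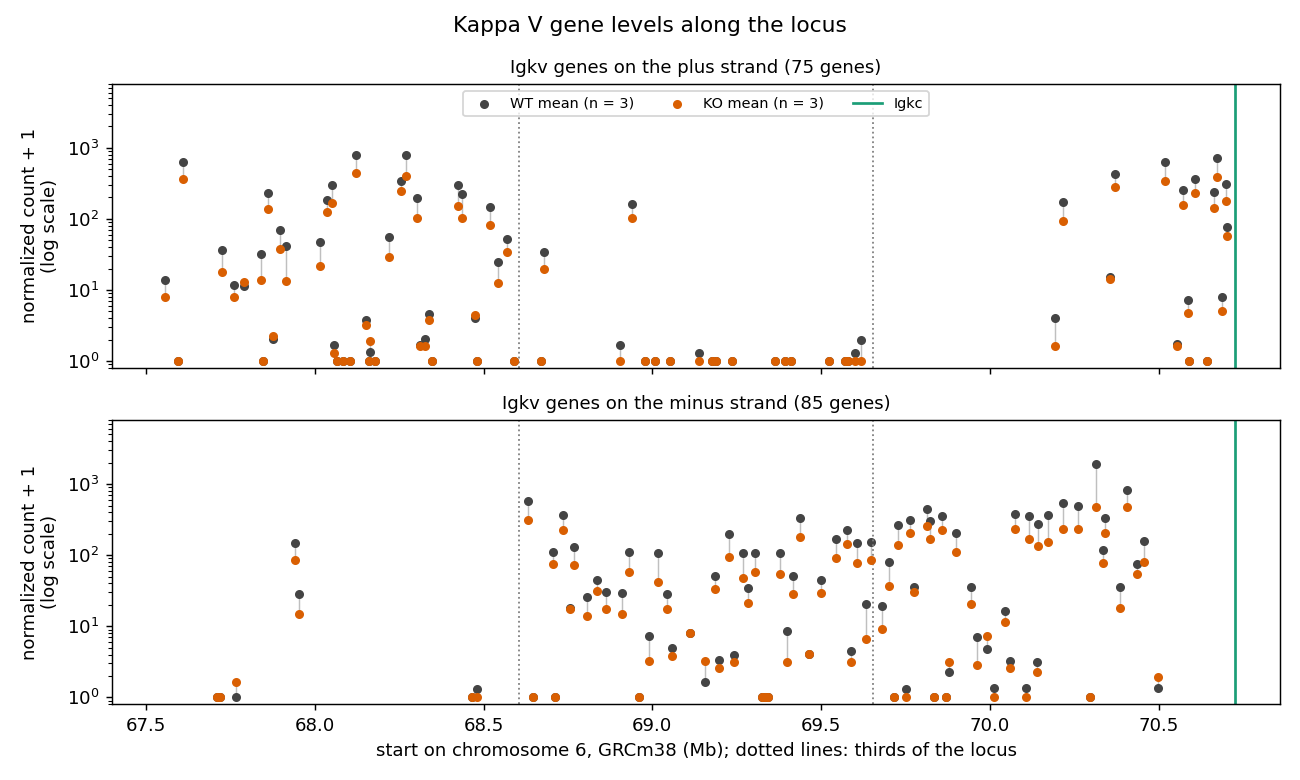
Mean normalized count plus 1 (log scale) of all 160 *Igkv* genes against start position on chromosome 6 in Mb, plus strand genes above and minus strand genes below, with black points for the mean of 3 WT and orange points for the mean of 3 KO libraries, a grey line joining the points of a gene, dotted lines between the 3 segments and a green line at *Igkc*. For the 84 tested genes, the orange point lies below the black one for all but *Igkv14-130*, with the widest gap at *Igkv8-21*.

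Symbols carry the V family as their first number, and the annotation holds 20 families, V1 to V20. V4 is the largest with 33 genes, all on the minus strand, of which 22 were tested. V13 has 18 genes but only 2 were tested, since 16 are pseudogenes. V7, V18, V19 and V20 have 1 gene each, as does V16. No gene of V7, V18 or V20 reached a mean of 10 normalized counts, so 17 families entered the comparison.

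V4, the largest family, was not the most abundant. V8, with 9 genes tested, had the highest mean share of the summed level at 16.8%, followed by V6 (14.2%), V3 (13.8%), V1 (12.3%) and V4 (11.4%). These 5 families together held 68.5%. V12 followed with 7.10%, V5 with 4.34% and V10 with 3.93%, and each of the others held less than V10. Divided by exon length, the shares were within a percentage point of these, at 16.6% for V8, 14.5% for V6, 14.0% for V3, 11.4% for V1 and 11.4% for V4. V8 was first in KO 2, WT 2 and WT 3 but not in the other 3 libraries. In KO 1 its share (12.0%) was below those of V6 (14.3%), V3 (15.1%), V1 (13.7%) and V4 (12.5%), in KO 3 (14.6%) it was below V6 (15.5%) and V3 (14.9%), and in WT 1 (14.1%) it was below V6 (14.7%) and V3 (15.9%).

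Some families rested on a single gene and others were spread over many. *Igkv8-21* made up 45.5% of V8, *Igkv10-96* 79.1% of V10 and *Igkv15-103* 99.9% of V15, whereas *Igkv4-59*, the highest V4 gene, made up 15.2% of its family. Over the whole locus, 46 genes reached 100 normalized counts on average and 6 reached 500. Per kb of exon, the 8 genes highest by mean were *Igkv8-21* (3121 normalized counts), *Igkv6-15* (1879), *Igkv1-117* (1533), *Igkv3-4* (1523), *Igkv1-110* (1481), *Igkv3-12* (1350), *Igkv1-135* (1269) and *Igkv10-96* (1246).

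The summed level of all *Igkv* genes was 13438, 7225 and 10051 normalized counts in KO 1, KO 2 and KO 3. In WT 1, WT 2 and WT 3 it was 18287, 12429 and 27575. WT 3 was the highest and KO 2 the lowest library, and KO 1 lay above WT 2, so the groups overlapped. Within pairs the log2 ratio of KO to WT was −0.44, −0.78 and −1.46 for pairs 1, 2 and 3, a mean of −0.89 ± 0.51 (SD, n = 3 pairs). All 3 pairs pointed the same way and the mean was larger than the spread between pairs (SD); no test was made of this sum. Whether fewer cells with a κ chain or less κ mRNA per cell lies behind a lower level cannot be told apart in bulk RNA.

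Most V genes were lower in the libraries labelled KO. Of the 84 genes tested, 83 had a log2 fold change below 0, and 74 (88.1%) were lower in KO in all 3 pairs, against 13.1% of all genes tested. The median log2 fold change was −0.82, with quartiles at −0.97 and −0.68, against 0.00 over all genes tested. In pair 1, 75 of the 84 were lower, in pair 2, 80, and in pair 3 all 84. Pairs 1, 2 and 3 had median log2 ratios over the genes of −0.42, −0.65 and −1.34, with all-gene medians of −0.01, 0.00 and 0.00. Pair 3, which contains the WT library with the highest κ level, thus had the largest difference and pair 1 the smallest. For 18 genes (21.4%) every KO library lay below every WT library, against 3.44% of all genes tested. None of the 84 was higher in KO in all 3 pairs.

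None of these genes passed the threshold in limma with the pair as a block. The number of *Igkv* genes with an adjusted *p* under 0.05 was 0, as it was for all 12322 genes (0%), and the smallest adjusted *p* of an *Igkv* gene in limma was 0.653. At an unadjusted *p* under 0.05, limma gave 71 of the 84 (84.5%) as lower and 0 as higher, against 3.03% of all genes as lower. On the fragments, edgeR (quasi-likelihood) gave 0 *Igkv* genes after adjustment and 69 lower at an unadjusted *p* under 0.05, against 2.99% of all genes tested. Without the pair in the model, limma gave 40 *Igkv* genes as lower at that level, against 1.38% of all genes, and edgeR 46, against 1.52%. DESeq2 on the fragments, with the pair in the model, gave adjusted *p*-values to 58 *Igkv* genes and called 10 of them lower (17.2%), against 0.222% of the 9894 genes it gave a value. Without the pair, in a fit added after seeing the data, DESeq2 called 0 *Igkv* genes and 2 of all genes lower. When pair 1, which had the smallest difference, was left out, limma called 41 *Igkv* genes lower, against 1.36% of all genes. That fit rests on pairs 2 and 3 alone. The 41 include all 10 of DESeq2, whose fit holds the same libraries, so the overlap is no independent check. Without pair 2 or pair 3 limma called 0 *Igkv* genes.

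The 10 genes called by DESeq2 came from 7 families. They were *Igkv1-117*, *Igkv3-4*, *Igkv3-12*, *Igkv4-59*, *Igkv6-15*, *Igkv6-23*, *Igkv8-24*, *Igkv8-30*, *Igkv10-96* and *Igkv16-104*. The smallest adjusted *p* in DESeq2 was that of *Igkv8-24* (1.50e-04, log2 fold change −1.19 ± 0.21 SE), a minus strand gene at chr6:70216858-70217421. Its level was 342, 124 and 236 normalized counts in KO 1 to KO 3 and 557, 280 and 762 in WT 1 to WT 3. KO 1 lay above WT 2, and the log2 ratios of the pairs were −0.71, −1.18 and −1.69. In limma the log2 fold change was −1.19 ± 0.18 (SE) and the adjusted *p* 0.653.

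*Igkv8-30* (chr6:70117061-70117620, minus strand) had the smallest unadjusted *p* of the locus in limma. It had 243, 90.6 and 168 normalized counts in the KO libraries and 422, 184 and 448 in the WT libraries. KO 1 lay above WT 2, so the groups overlapped. The log2 ratios of its pairs were −0.79, −1.02 and −1.41, with a mean of −1.08 ± 0.31 (SD, n = 3 pairs). Its adjusted *p* was 0.653 in limma and 5.47e-04 in DESeq2.

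The second highest V gene, *Igkv6-15* (chr6:70406469-70406992, minus strand), had 609, 317 and 480 normalized counts in KO 1 to KO 3 and 868, 532 and 1105 in WT 1 to WT 3. KO 1 was again above WT 2, while each pair had the lower value in KO. The fold change in DESeq2 was −0.82 ± 0.16 (log2, SE) with an adjusted *p* of 9.36e-04. *Igkv1-117* (chr6:68121046-68121827, plus strand), the highest gene of the distal segment, had 613, 303 and 414 normalized counts in the KO libraries and 764, 574 and 1049 in the WT libraries, with an adjusted *p* of 0.00623 in DESeq2. *Igkv10-96* (chr6:68631963-68632442, minus strand), the highest gene of the middle segment, had 368, 244 and 318 against 564, 407 and 784, so its groups did not overlap. *Igkv16-104*, the only gene of V16, had 212, 86.7 and 153 against 285, 215 and 384, and its groups did not overlap either.

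The most abundant V gene was *Igkv8-21* (chr6:70314895-70315472, minus strand). It had 336, 528 and 543 normalized counts in KO 1, KO 2 and KO 3, and 571, 1634 and 3541 in WT 1, WT 2 and WT 3. All 3 WT libraries were above all 3 KO libraries. The ratio of its highest to its lowest WT library was larger than for any other V gene with a mean of at least 100. The log2 ratios of the pairs were −0.77, −1.63 and −2.71, a mean of −1.70 ± 0.97 (SD, n = 3 pairs), and the log2 fold change in limma was −1.70, the lowest of the 84 genes. The spread between pairs was wide, and the gene passed neither limma (adjusted *p* = 0.693) nor DESeq2 (adjusted *p* = 0.270).

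The share of *Igkv8-21* varied between libraries of the same genotype. It took 3.12% of the *Igkv* fragments in WT 1 (95% Wilson interval 2.89 to 3.38), 13.1% in WT 2 (12.6 to 13.8) and 12.8% in WT 3 (12.4 to 13.3). In the KO libraries it took 2.50%, 7.31% and 5.40% in turn. The intervals cover counting error only, and KO 2 and KO 3 lay above WT 1, so the shares of the groups overlapped although each pair had the lower share in KO. It was therefore the leading V gene in 4 of the libraries, those of pairs 2 and 3, whereas *Igkv6-15* led in WT 1 with 4.75% and *Igkv1-117* in KO 1 with 4.56%. The number of V genes that together reached 50% of the summed level was 17, 16 and 16 in KO 1 to KO 3 and 16, 14 and 14 in WT 1 to WT 3. The effective number of V genes (the inverse of the sum of squared shares) was 44.1, 40.7 and 42.9 in KO and 43.2, 29.0 and 29.5 in WT, with the 2 low values in the WT libraries where *Igkv8-21* was highest.

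At the other end stood genes with smaller differences between genotypes. Where the mean reached 100 normalized counts, the 3 with the log2 fold changes nearest 0 in limma were *Igkv14-111* (−0.44 ± 0.11 SE), *Igkv17-121* (−0.54 ± 0.15) and *Igkv6-17* (−0.57 ± 0.14). *Igkv14-111* had 282, 198 and 268 normalized counts in KO and 328, 275 and 419 in WT, with overlapping groups. *Igkv3-1*, the V gene nearest to *Igkc* among those tested, had 72.7, 44.8 and 52.7 in KO and 94.4, 40.8 and 89.1 in WT, and was higher in KO in pair 2. *Igkv1-135*, the farthest, had 543, 220 and 321 in KO and 640, 361 and 915 in WT, and was lower in KO in all 3 pairs. The gene with a log2 fold change above 0, *Igkv14-130* (0.22 ± 0.37 SE in limma), was picked out after its value was seen. Its levels of 14.2, 10.5 and 11.8 in KO and 8.50, 9.41 and 13.2 in WT overlapped, and they rest on 68 fragments over 6 libraries.

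The summed level of each of the 17 families with a tested gene was lower in KO in all 3 pairs, also with TMM scaling and with size factors computed without Ig genes. The mean log2 ratio over pairs ranged from −1.43 (V11) to −0.55 (V14), with a median of −0.82. In pair 1 the family ratios lay between −0.72 and −0.20, in pair 2 between −1.54 and −0.40, and in pair 3 between −2.30 and −0.89. All 17 had their largest difference in pair 3, and the spread between pairs of a family (SD 0.31 to 0.92) exceeded the spread of the 17 family means (SD 0.24). The spread between pairs includes a shift shared by the families, with median family ratios of −0.43, −0.65 and −1.32 in pairs 1 to 3. It is therefore no measure of whether families differ within a pair, which the shares below describe. The KO and WT libraries did not overlap in V8, V10, V11 and V16.

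**Figure D2:**
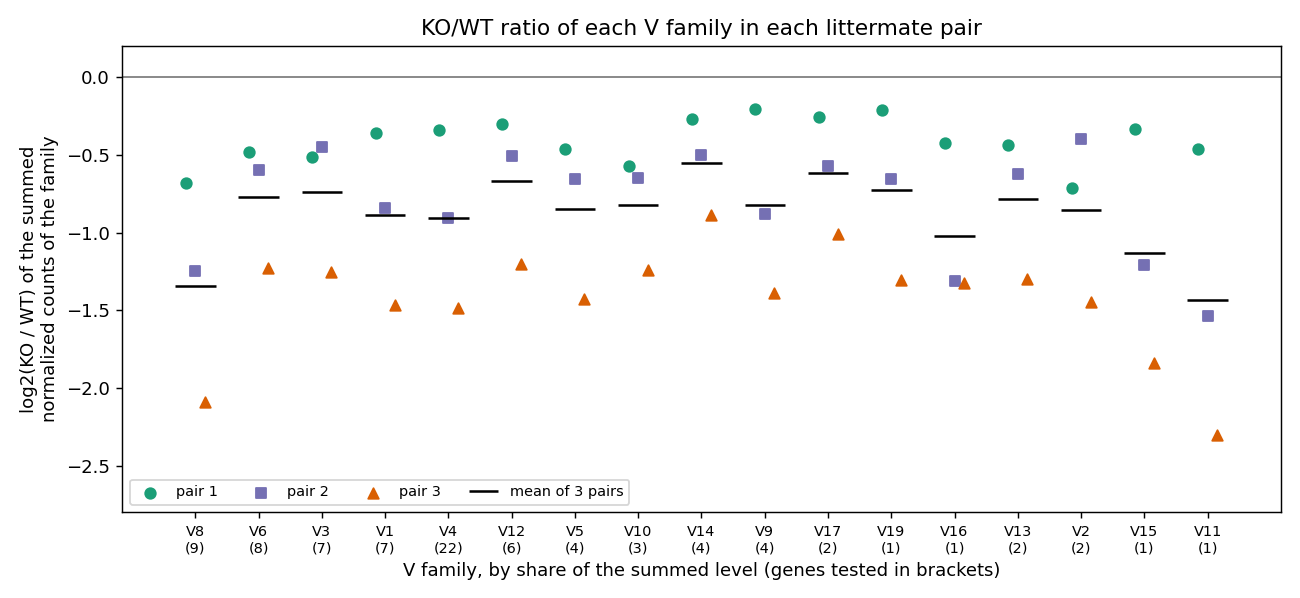
Log2 ratio of KO to WT of the summed normalized counts of each of 17 V families, ordered by share of the summed *Igkv* level, with a symbol for each littermate pair and a bar for the mean of 3 pairs; brackets hold the number of genes tested. All symbols lie below 0, and pair 3 is the lowest symbol in every family, with V8 and V11 lowest by mean at −1.34 and −1.43.

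By family, V8 stood lowest among the abundant ones. Its sums were 1607, 1132 and 1465 normalized counts in KO 1 to KO 3 and 2573, 2694 and 6250 in WT 1 to WT 3. All WT sums were above all KO sums, and the log2 ratios were −0.68, −1.25 and −2.09 (mean −1.34 ± 0.71 SD, n = 3 pairs). Without *Igkv8-21*, a calculation added after its values were seen, the ratios of V8 were −0.66, −0.81 and −1.56 (mean −1.01 ± 0.48 SD). Of the 9 V8 genes tested, 8 were lower in KO in all 3 pairs, and the median log2 fold change was −0.97.

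V6, V3, V1 and V4 lay closer to the locus as a whole. V6 summed to 1925, 1064 and 1560 normalized counts in KO and 2695, 1608 and 3648 in WT, a mean log2 ratio of −0.77 ± 0.40 (SD). V3, the family next to *Igkc* with 12 of its 13 genes on the plus strand, summed to 2028, 965 and 1500 in KO and 2903, 1317 and 3586 in WT (−0.74 ± 0.45). V1 summed to 1841, 851 and 1159 in KO and 2365, 1525 and 3202 in WT (−0.89 ± 0.55). The groups of these 3 families overlapped, with KO 1 above WT 2 in each. In V4 the sums were 1675, 759 and 1110 in KO and 2121, 1421 and 3103 in WT (−0.91 ± 0.57), and 18 of its 22 tested genes were lower in all 3 pairs.

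Among the smaller families, V11 and V15 had the lowest mean ratios. V11 rests on *Igkv11-125*, with 19.8, 8.58 and 9.08 normalized counts in KO and 29.3, 31.4 and 60.2 in WT. V15 rests on *Igkv15-103*, with 159, 62.9 and 89.0 in KO and 199, 145 and 319 in WT. The mean log2 ratios of the family sums, pseudogenes included, −1.43 ± 0.92 and −1.13 ± 0.76 (SD, n = 3 pairs) had the largest spreads between pairs. V14, with a mean log2 ratio of −0.55 ± 0.31, V17 (−0.61 ± 0.38) and V12 (−0.67 ± 0.47) were the families closest to 0. V12 is led by *Igkv12-44*, with 331, 188 and 262 in KO and 432, 297 and 624 in WT. The other family leaders, *Igkv5-43*, *Igkv9-120*, *Igkv19-93*, *Igkv13-84*, *Igkv2-109* and *Igkv17-127*, had log2 fold changes between −0.85 and −0.65 in limma. Without pair 3 these lay between −0.62 and −0.41. In V18, V20 and V7, *Igkv18-36*, *Igkv20-101-2* and *Igkv7-33* had 31, 19 and 11 fragments over the 6 libraries and were not tested. *Igkv18-36*, the only gene of V18, was higher in KO in all 3 pairs, with log2 ratios of 1.17, 0.13 and 0.91.

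Shares of the summed level describe usage within each library. The share of V8 was 12.0%, 15.7% and 14.6% in KO 1 to KO 3 and 14.1%, 21.7% and 22.7% in WT 1 to WT 3. Every pair had the lower share in KO, by −5.40 ± 3.04 percentage points (mean ± SD), and by −1.32 ± 0.46 points when *Igkv8-21* was left out of both the family and the sum. V12 went the other way, with 7.56%, 8.21% and 7.19% in KO and 6.84%, 6.77% and 6.02% in WT, a difference of 1.11 ± 0.36 points. The KO and WT shares of V12 did not overlap, and neither did those of V17 and V19. Without *Igkv8-21* the groups of these families overlapped (V12 0.81 ± 0.21 points). V8 was then the only family of the 17 with groups apart, at up to 9.70% in KO and from 9.82% in WT. V14 (0.81 ± 0.48 points), V17 (0.46 ± 0.26) and V19 (0.24 ± 0.09) also had higher shares in KO in all 3 pairs, as did V13 (0.10 ± 0.08), while V11 (−0.08 ± 0.07) had lower shares in all 3. Without *Igkv8-21*, V13 was higher in 2 of the 3 pairs, and V19 differed by 0.15 ± 0.17 points. V14 (0.68 ± 0.41 points) and V17 (0.37 ± 0.21) were then still higher in KO in all 3 pairs. Shares sum to 100, so a lower share of V8 raises the others. In V3, V1 and V4 the differences were 1.30 ± 1.85, 0.07 ± 0.64 and −0.09 ± 0.91 points, and that of V6 was likewise within the spread between pairs (SD 1.44). The sign changed for V1 without pair 1 (−0.29 points) and for V4 without pair 2 (0.33 points). Over the pairs left out in turn, V3 lay between 0.57 and 2.34 points and V6 between 0.69 and 2.04.

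**Figure D3:**
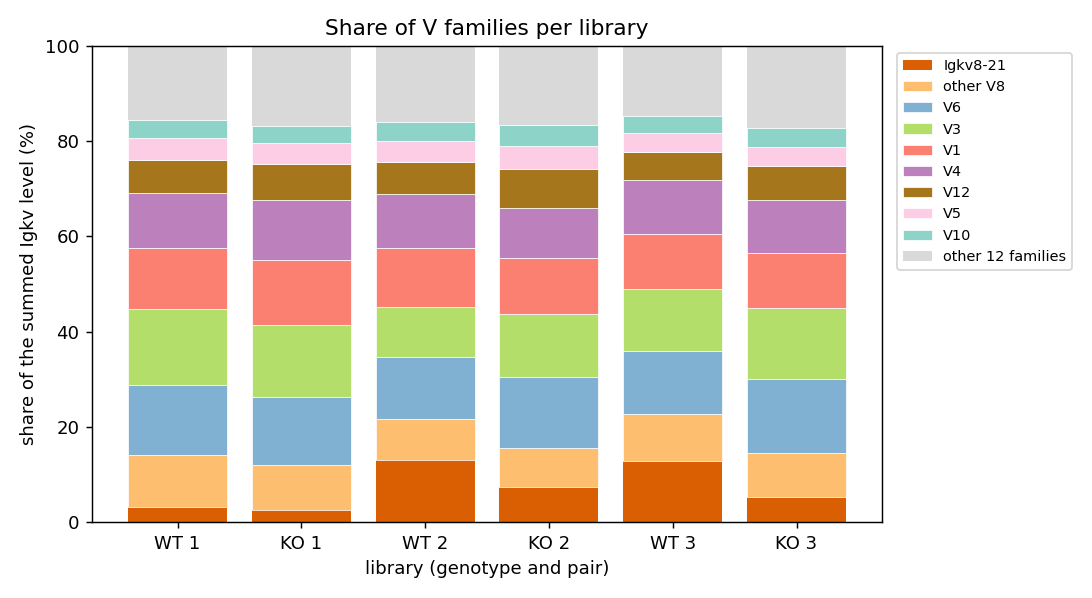
Stacked shares (%) of the summed *Igkv* level in each library, ordered by pair with WT before KO, for *Igkv8-21*, the other V8 genes, the 7 next families by mean share and the other 12 families together. *Igkv8-21* takes 13.1% and 12.8% in WT 2 and WT 3, 7.31% and 5.40% in their KO littermates, and at most 3.12% in pair 1.

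Across the 84 genes, the usage profiles of the libraries were alike. Pearson's *r* of log2(normalized count + 1) was 0.984, 0.957 and 0.967 between the KO and WT libraries of pairs 1, 2 and 3, 0.948 to 0.975 between libraries of the same genotype, and 0.943 to 0.974 between libraries that shared neither. These are correlations across genes, which share a locus and a library and are not independent replicates.

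By strand and position, the medians of the fold changes were close. The median log2 fold change in limma was −0.80 for the 32 plus strand genes (range −1.63 to 0.22) and −0.86 for the 52 minus strand genes (range −1.70 to −0.01). At an unadjusted *p* under 0.05, 27 and 44 of them were lower, against 3.03% of all genes tested. For the distal, middle and proximal segments the medians were −0.84, −0.83 and −0.81, with 19 of 22, 23 of 28 and 29 of 34 genes lower at that level. The quartiles of the 3 segments overlapped. Without pair 3 the median was −0.47 for the plus strand and −0.53 for the middle segment.

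By sums, the minus strand fell further below WT than the plus strand. The log2 ratios were −0.47, −0.88 and −1.57 for minus strand genes and −0.41, −0.64 and −1.30 for plus strand genes in pairs 1 to 3. The difference, −0.19 ± 0.11 (SD, n = 3 pairs), had the same sign in all pairs and was −0.07 ± 0.02 without *Igkv8-21*. Within the proximal segment, the median log2 fold change was −0.68 over the 10 plus strand genes and −0.86 over the 24 minus strand genes. The sums of the proximal and distal segments differed by −0.18, 0.02 and −0.18 in pairs 1 to 3 (mean −0.11 ± 0.11 SD), with the opposite sign in pair 2.

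The V genes moved together with the constant exon. *Igkc*, the exon shared by all κ mRNAs, had 16879, 9681 and 14006 normalized counts in KO 1 to KO 3 and 23749, 16808 and 37309 in WT 1 to WT 3. The groups overlapped by KO 1 and WT 2, as in the V genes. Its log2 ratios of −0.49, −0.80 and −1.41 differed from those of the summed *Igkv* level by 0.01 ± 0.05 (SD, n = 3 pairs). The ratio of *Igkv* to *Igkc* was 0.796, 0.746 and 0.718 in KO and 0.770, 0.739 and 0.739 in WT, with overlapping groups. *Igkc* itself had an adjusted *p* of 0.693 in limma and 0.169 in DESeq2.

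The summed J segments had smaller differences than both. The 5 *Igkj* entries together had 1197, 769 and 951 normalized counts in KO and 1095, 885 and 1450 in WT, with KO 1 above WT 1. Their log2 ratios were 0.13, −0.20 and −0.61, and those of the summed *Igkv* level were lower by −0.67 ± 0.16 (difference, mean ± SD, n = 3 pairs), the same direction in all 3 pairs. *Igkj1* and *Igkj2* had log2 fold changes of −0.48 ± 0.18 (SE) and −0.33 ± 0.13 in limma, *Igkj5* −0.21 ± 0.13, and *Igkj3* and *Igkj4* −0.06 ± 0.19 and −0.10 ± 0.16. Without pair 3, *Igkj3* and *Igkj4* were above 0 (0.13 and 0.14), and *Igkj1*, *Igkj2* and *Igkj5* were at −0.30, −0.17 and −0.04. *Igkj3* was also above 0 without pair 2 (0.03). At an unadjusted *p* under 0.05 in limma, *Igkj1* and *Igkj2* were lower, against 3.03% of all genes tested. The adjusted *p*-values of the 5 in limma lay between 0.970 and 0.989. The segments are far shorter than a fragment, and how fragments over a V-J junction were divided between V, J and unassigned was not tested.

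Heavy chain V genes served as a comparison. Of 185 *Ighv* genes, 90 were tested, with a median log2 fold change of −0.78 in limma. The summed *Igkv* and *Ighv* levels differed in their log2 ratios by −0.17, 0.03 and 0.00 in pairs 1 to 3, a mean of −0.05 ± 0.11 (SD), so no difference beyond the spread between pairs was seen between κ and heavy chain V genes.

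Genes of V-J joining and of κ transcription were taken from lists. Of 15 joining genes, 12 were tested and 0 passed limma or DESeq2 or an unadjusted *p* under 0.05, with a median log2 fold change of 0.08. *Rag1* and *Rag2*, the recombinase genes, were at 0 in all 6 libraries, and the highest were *Atm* and *Hmgb1*, with log2 fold changes of 0.13 ± 0.08 (SE) and 0.01 ± 0.06. Of 19 octamer and κ enhancer factors, all were tested and 0 passed either test or an unadjusted *p* under 0.05, with a median of 0.03. *Pou2af1*, the B cell coactivator of octamer factors, had 7561, 5712 and 6662 normalized counts in KO and 6861, 6215 and 7555 in WT. *Pax5*, a B cell identity factor on the same list, had a log2 fold change of 0.16 ± 0.13.

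Plasmablast markers varied between libraries in part with the κ level. Their summed level was 21281, 12065 and 15240 in KO 1 to KO 3 and 16830, 12590 and 25871 in WT 1 to WT 3, log2 ratios of 0.34, −0.06 and −0.76. WT 3, the library with the highest *Igkv* level, was the highest here too, and KO 2, the lowest in *Igkv*, was the lowest. Unlike that of the V genes, this sum was higher in KO in pair 1, where *Mzb1* and *Creld2* were lower. By mean, *Xbp1*, *Mzb1*, *Jchain* and *Irf4* were the highest of the 8 markers, and the sum mainly follows these. *Sdc1*, which encodes CD138, averaged 46.8 normalized counts and *Tnfrsf17* 0.640, so the sum says little about them. Of the 8 markers 7 were tested and 0 passed limma or DESeq2. In limma 2 (*Mzb1* and *Creld2*) were lower at an unadjusted *p* under 0.05, against 3.03% of all genes tested. *Jchain*, which joins IgM and IgA units, had 4744, 2171 and 2722 in KO and 3555, 2573 and 8096 in WT, and *Xbp1*, a regulator of secretory cells, 6743, 3806 and 4906 against 4092, 3215 and 6463. *Hspa5*, the chaperone that binds Ig chains, had 10252, 7608 and 9625 against 12347, 9509 and 14369, with a log2 fold change of −0.39 ± 0.08 (SE) and an adjusted *p* of 0.693 in limma and 0.0306 in DESeq2. The part of plasmablast content in the V gene differences was not tested.

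V genes of a family are close copies, which bears on how well fragments can be assigned. Among the 84 tested genes, the V exons of 376 pairs of the same family were identical at a median of 86.1% of aligned positions (range 74.4 to 99.0), and those of 3110 pairs from different families at 63.8% (53.7 to 81.5). Fragments that map equally well to several places were left out, so the share of 75-base stretches of each transcript that occur in no other annotated transcript was computed. All stretches were unique in 29 of the 84 genes, and under 90% in 38. The lowest family medians were those of V13 (56.4%) and V17 (74.6%), and the levels of such genes are uncertain. The median log2 fold change was −0.87 in the 29 genes with unique stretches, −0.82 in the 17 with at least 90% and −0.79 in the 38 below 90%. By level, the medians were −0.82 for 29 genes that reached 200 on average, −0.81 for 28 genes between 50 and 200 and −0.87 for 27 genes under 50.

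The germline ends of the V exons vary in length. In 83 of the 84 genes a tyrosine or phenylalanine codon followed by a cysteine codon was found in frame near the end of the exon, the conserved cysteine that opens the third complementarity-determining region. After that codon 23 bases of germline sequence remained in 57 genes and 25 in 16 genes. The last 60 coding bases are given for the highest gene of each of the 8 families with the largest shares, 5′ to 3′ on the strand of the gene (GRCm38, Gencode), with the cysteine codon in capitals. They are the germline bases next to the joining site. *Igkv8-21*, with 20 bases after the codon, and *Igkv4-59*, with 25, differ in length from the other 6, and this length also varies within V8 and V4.
Igkv8-21, chr6:70314895-70314954, minus strand: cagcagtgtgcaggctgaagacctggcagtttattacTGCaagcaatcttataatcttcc
Igkv6-15, chr6:70406469-70406528, minus strand: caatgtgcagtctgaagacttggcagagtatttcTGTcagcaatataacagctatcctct
Igkv3-4, chr6:70672318-70672377, plus strand: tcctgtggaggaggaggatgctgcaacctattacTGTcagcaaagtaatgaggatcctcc
Igkv1-117, chr6:68121768-68121827, plus strand: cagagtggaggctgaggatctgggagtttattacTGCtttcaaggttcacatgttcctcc
Igkv4-59, chr6:69438218-69438277, minus strand: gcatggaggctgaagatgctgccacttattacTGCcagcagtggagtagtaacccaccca
Igkv12-44, chr6:69814631-69814690, minus strand: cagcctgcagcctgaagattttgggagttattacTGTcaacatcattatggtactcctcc
Igkv5-43, chr6:69823355-69823414, minus strand: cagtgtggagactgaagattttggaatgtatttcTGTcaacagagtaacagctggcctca
Igkv10-96, chr6:68631963-68632022, minus strand: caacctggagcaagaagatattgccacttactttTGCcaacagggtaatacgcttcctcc

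*Igkv8-21* is shown beside its nearest relative among the tested genes, *Igkv8-30*, since it is the most abundant V gene and the pair differed in how much they varied between libraries. Their V exons were identical at 92.1% of 316 aligned positions and differed at 25. The 150 bases with the most differences, 17 of the 25, start at base 24 of the V exon of *Igkv8-21*, and differing bases are in capitals. In *Igkv8-21*, 94.8% of the 75-base stretches were unique, and in *Igkv8-30* 94.6%.
Igkv8-21, chr6:70315035-70315184, minus strand: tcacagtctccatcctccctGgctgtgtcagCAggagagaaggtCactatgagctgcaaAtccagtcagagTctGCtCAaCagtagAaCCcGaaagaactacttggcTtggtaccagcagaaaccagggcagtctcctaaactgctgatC
Igkv8-30, chr6:70117204-70117353, minus strand: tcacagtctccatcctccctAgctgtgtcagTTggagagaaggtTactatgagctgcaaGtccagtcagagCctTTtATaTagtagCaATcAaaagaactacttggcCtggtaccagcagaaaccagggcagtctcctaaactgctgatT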

How the data were processed

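RNA from 6 libraries (3 KO, 3 WT) was depleted of rRNA and sequenced by strand. According to the study's methods and processing notes, the authors trimmed reads with cutadapt, aligned them with STAR 2.6.1a to GRCm38, counted properly paired fragments on exons with featureCounts (Subread 1.6.3, Gencode vM19, mapping quality of at least 10), and scaled them with size factors from DESeq2. What they deposited is thus a signal on the scale of counts, 1 column per library. Each library has a smallest step, and every value above 0 (100%) was a whole number of steps, within 0.01, which gave the fragments per gene.

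Symbols, positions and transcript sequences came from Gencode vM21 (GRCm38), which matched 54409 of 54446 identifiers. The test was limma 3.58.1 in R 4.3.3 (trend) on log2(normalized count + 1), over genes that averaged 10 or more, with genotype and pair, two-sided, Benjamini-Hochberg adjusted over all 12322 genes, threshold 0.05. The log2 scale with a pseudocount of 1 understates changes of low genes. The other log2 ratios carry no pseudocount. The recovered fragments were also tested with edgeR 4.0.16 and DESeq2 1.42.0. In DESeq2 23 genes were called (22 lower, 1 higher), in limma and edgeR 0. The pairs come from the batch labels and the littermates named in the methods. Within pairs, the deviations of KO and WT from their group means correlated over genes at 0.328, 0.685 and 0.170. Chi-square per gene between libraries was 4.44 to 22.0, so none were duplicates.

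Named *Igkv* genes were the 8 highest by mean, the highest of each family, the 3 lowest and 3 highest log2 fold changes among those with a mean of at least 100, those with an adjusted *p* under 0.05 in limma or DESeq2, and the nearest to and farthest from *Igkc*, 30 genes. *Igkv14-130*, *Igkv2-137* and *Igkv4-77* were added after their values were seen. The members and lists were chosen with earlier results of these data known; 2 markers of those lists are not reported here. Alternatives covered the pseudocount, filter, scaling, block, test and each pair left out. Promoter octamers and recombination signals of the V genes were not analysed here.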

Additional observations from a re-analysis of the deposited data

How the results depend on the processing

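The median log2 fold change of the *Igkv* genes, those by strand and segment, the log2 ratio of the summed level and the number of families lower in all pairs kept their direction and stayed within the spread between pairs (families: within 1.5 times) under each alternative run. Without pair 3 the median was −0.56 for the *Igkv* genes, −0.47 for the plus strand and −0.53 for the middle segment, against −0.82, −0.80 and −0.83 with all pairs. The log2 fold changes of the 27 named *Igkv* genes in the fit were negative in all 377 values from the alternatives, a count that leaves out *Igkv14-130*. Calls depended on the test and on the pairs. DESeq2 with the pair as a block called 22 genes lower and 1 higher, 10 of the lower ones *Igkv*, where limma called 0, and without the block, an alternative added after seeing the data, it called 2 lower, 0 of them *Igkv*. Leaving out a pair gave between 0 and 168 genes lower, between 0 and 3 higher and between 0 and 41 *Igkv* genes lower in limma, with the highest values without pair 1 and 1 gene lower without pair 2. The cause was not tested. Without the replicate block, limma gave 40 *Igkv* genes as lower at an unadjusted *p* under 0.05, against 1.38% of all genes tested. In edgeR there were 46, against 1.52%. With the block the counts were 71 in limma, against 3.03% of all genes tested, and 69 in edgeR, against 2.99%. The edgeR and DESeq2 fits without the block were added after seeing the data. Without *Igkv8-21*, also added afterwards, the KO minus WT share was −1.32 percentage points for V8 and −0.62 for V1, in place of −5.40 and 0.07: the gene leaves the family V8 and, for every family, the sum. V4, V6 and V3 then had −0.75, 0.57 and 0.72 points. Leaving out a pair gave −0.29 to 0.34 points for V1 and −0.57 to 0.33 for V4, so their signs depend on the pairs. Genes with few fragments, including V7, V18 and V20, are limited by depth. Scaling by size factors hides any shift common to most transcripts.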

Other observations

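The 3 lambda chain V genes, which encode the other type of light chain, were all tested and had a median log2 fold change of −0.53 in limma. At an unadjusted *p* under 0.05, 0 of them were lower, against 3.03% of all genes tested. Their summed level was 1155, 667 and 646 normalized counts in KO 1 to KO 3 and 1163, 673 and 1763 in WT 1 to WT 3. In pairs 1 and 2 the KO and WT sums were nearly equal, with log2 ratios of −0.01 and −0.01, and in pair 3 the ratio was −1.45. The log2 ratio of the summed *Igkv* level was lower than that of lambda by −0.43, −0.77 and −0.01 in pairs 1 to 3 (mean −0.40 ± 0.38 SD), a difference that is close to the spread between pairs.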
